A study of Homo sapiens with 6 samples.

Results

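The BTB and SCAN zinc finger genes are the transcription factor genes that carry the symbols ZBTB, ZSCAN or ZKSCAN. They were taken from the expression table by symbol alone, and 69 of its 47577 loci matched, namely 41 ZBTB, 21 ZSCAN and 7 ZKSCAN genes. Of these, 59 were expressed (37 ZBTB, 16 ZSCAN and 6 ZKSCAN), which means that 3 or more of the 6 libraries had a normalized value of 10 or above, as for 17568 loci of the whole table. The cells were OVCAR3, an established line of high-grade serous ovarian cancer (HGSOC), treated for 6 h with the solvent DMSO or with 200 nM THZ531, a covalent inhibitor of the transcription kinases CDK12 and CDK13. Each treatment had 3 libraries, described as biological repeats of this 1 line, without any genetic change. One label field gives the compound as THZ1, whereas the sample titles and the design text name THZ531, and the latter name is used here. PolyA RNA was sequenced, and the values are reads per gene divided by a size factor per library, here called normalized reads. They are not corrected for gene length, so they compare libraries and not genes. The DMSO libraries held 69769011, 60146046 and 70986130 reads on genes, and the THZ531 libraries held 53054048, 57953296 and 57935278. All 9 markers of serous carcinoma passed the minimum, and the mean of 5 was higher and that of 4 lower in THZ531. KRT8 had 153783 normalized reads in DMSO and 230529 in THZ531, while PAX8 had 11272 and 1241. Among leukocyte markers CD3E was listed at 0, and PTPRC and CD14 averaged 33.6 and 119 normalized reads in DMSO and 24.1 and 119 in THZ531. The endothelial markers PECAM1, CDH5 and VWF were at 63.9, 31.8 and 89 in DMSO and at 59.3, 39.1 and 144 in THZ531. Of 4 fibroblast markers DCN and LUM were under the minimum, COL1A2 went from 37.4 to 56.7 and COL1A1 from 995 to 2190.

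Both families bind DNA through tandem zinc fingers at one end of the protein and meet other proteins through a domain at the other end. The BTB domain of ZBTB proteins forms dimers and recruits corepressor complexes with histone deacetylases, or the ubiquitin ligase scaffold CUL3, so many members act as repressors, several of them in lymphocyte development. The SCAN domain of ZSCAN proteins is a dimerization module that binds other SCAN proteins, and ZKSCAN proteins add a KRAB domain, which is known to recruit the corepressor TRIM28. CDK12 and CDK13 phosphorylate RNA polymerase II during elongation and are needed to transcribe many genes to their full length.

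After 6 h of THZ531 the ZSCAN and ZKSCAN genes, here called SCAN genes, were mostly lower and the ZBTB genes were spread to both sides. Calls were made with limma at the thresholds of the study's methods, a change of 1.5-fold or more in either direction and an unadjusted p of 0.05 or below. By this rule 30 of the 59 expressed genes changed, 6 up and 24 down, which is 50.8% beside 39.5% of all expressed loci. Those called down made up 40.7% of the family and 23.9% of all loci, and those called up made up 10.2% and 15.7%. With the Benjamini-Hochberg adjusted p in place of the unadjusted p, the same 30 genes passed, beside 38.8% of all loci, and edgeR and DESeq2 on the recovered reads also called these 30 (background 39.1% and 38.6%). At a 2-fold change or more, 1 member rose and 18 fell, beside 7.7% and 15.3% of all loci. An adjusted p of 0.05 or below at any fold was reached by 43 members, beside 68.6% of all loci. The median log2 fold change was -0.37 over the 59 genes and -0.01 over all loci.

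Among the 37 ZBTB genes 5 rose and 9 fell, with a median log2 fold change of -0.10. These shares, 13.5% up and 24.3% down, were near those of all loci. Of the 22 expressed SCAN genes 1 rose and 15 fell (68.2%), with a median of -1.26. By subfamily, 12 of 16 ZSCAN genes and 3 of 6 ZKSCAN genes fell. Of the SCAN genes that fell, ZSCAN5A, ZSCAN16, ZSCAN23 and ZSCAN31 passed the minimum for expression through their DMSO libraries, since at least 1 of their THZ531 libraries was under 10. Without them 11 of 18 SCAN genes fell. No test of the difference between the families was made. The SCAN genes were sampled less deeply, the median DMSO value being 207 normalized reads for SCAN genes and 1415 for ZBTB genes.

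**Figure D1:**
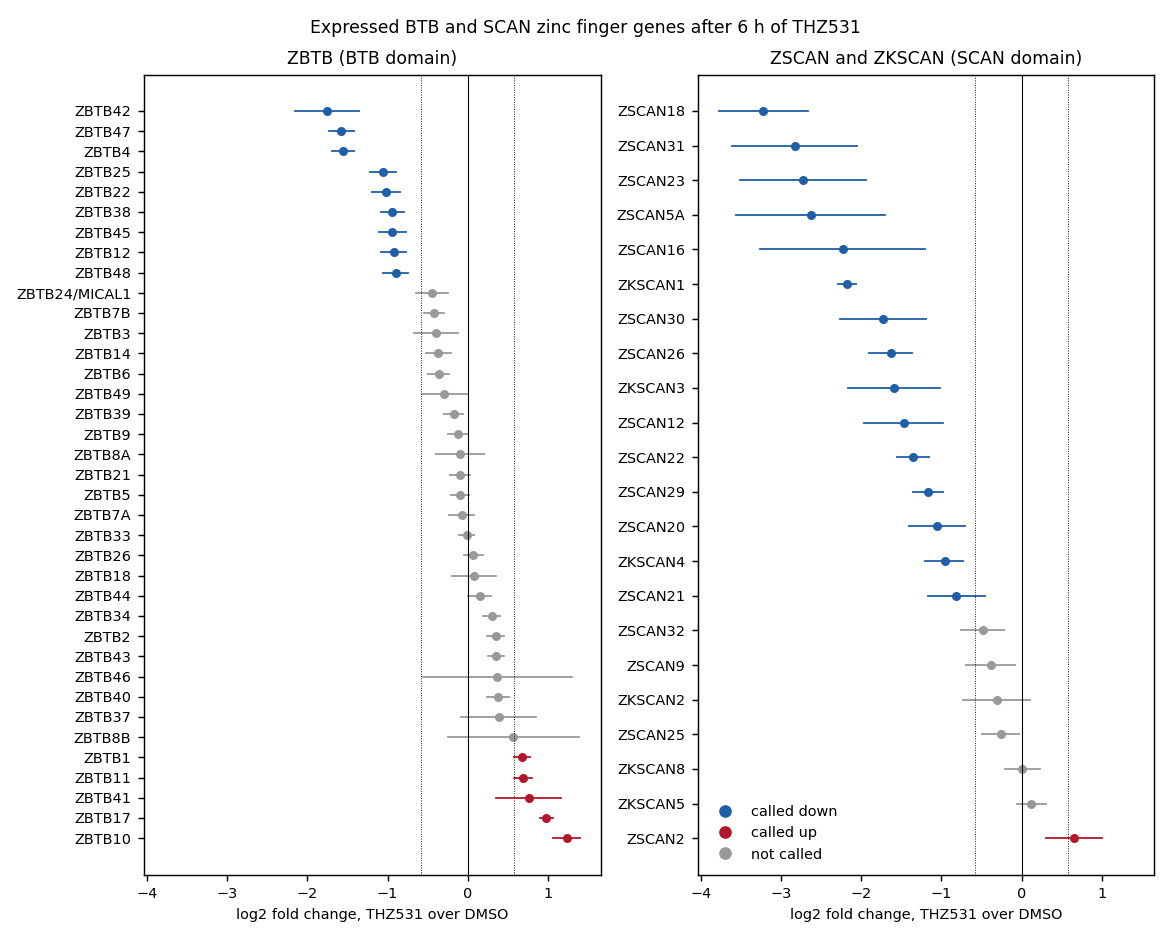
Log2 fold change of each of the 59 expressed genes, THZ531 over DMSO, ZBTB genes on the left and ZSCAN and ZKSCAN genes on the right. Points are limma estimates on the log2(value + 1) scale, lines are 95% confidence intervals, dotted lines mark a fold change of 1.5, and colours give the call. On the right 15 of 22 genes were called down, and on the left 9 of 37.

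The wider zinc finger class also had more genes called down than the 23.9% of all loci. Among 206 expressed ZNF genes of chromosome 19, 24 rose and 99 fell (48.1%), with a median log2 fold change of -0.61. Of 234 ZNF genes on other chromosomes 27 rose and 101 fell (43.2%), with a median of -0.46. Both groups hold genes of the BTB or SCAN class that carry ZNF symbols, and without those on the lists used below 96 of 203 and 93 of 215 fell. The split became 13 up and 116 down on chromosome 19 and 13 and 127 elsewhere with libraries scaled to the same total, and 7 and 144 and 7 and 152 with libraries scaled to the gene RPL34, when 32% and 42.8% of all loci were called down. The share of SCAN genes that fell, 68.2%, stood above these 48.1% and 43.2%. Without genes that passed the minimum through DMSO it was 61.1%, while the ZNF groups were not limited in that way. The share of ZBTB genes that fell stood below both ZNF groups, and these are counts without a test.

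Of all 59 genes ZSCAN18, which is often silenced by promoter methylation in gastrointestinal cancers, fell the most. Its normalized reads were 229, 219 and 163 in DMSO and 17.6, 18.2 and 27.3 in THZ531, so the lowest DMSO library lay far above the highest treated one. These values rest on 729 reads in the 3 DMSO libraries together and 54 in the THZ531 libraries. The log2 fold change was -3.23 ± 0.26 (SE, n = 3 per group, adjusted p = 1.7e-08 in limma). The gene lies on chromosome 19, minus strand, between 58083841 and 58118426 (hg38).

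ZKSCAN1, known as the source of a circular RNA in liver, had the highest mean value of the ZKSCAN genes and the smallest SE of those that fell. DMSO libraries had 6082, 6371 and 6402 normalized reads and THZ531 libraries 1312, 1399 and 1453. Its mean thus went from 6285 ± 177 to 1388 ± 70.9 (SD, n = 3 per group), a 4.53-fold lower level (log2 fold change -2.18 ± 0.05, SE, adjusted p = 2.0e-14 in limma). Corrected for length, its level in DMSO was 609 normalized reads per kb of exon, and in THZ531 it was 135. It is encoded on chromosome 7, plus strand, between 100015596 and 100045374 (hg38).

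ZSCAN26 is a member of the SCAN cluster on chromosome 6. It had 526, 449 and 576 normalized reads in DMSO and 165, 158 and 173 in THZ531, with a log2 fold change of -1.63 ± 0.12 (SE). ZKSCAN3, a known repressor of autophagy genes, fell from 165, 109 and 124 to 29, 55.7 and 47.8 (-1.59 ± 0.27, SE). For both genes every DMSO library was above every THZ531 library, which for ZSCAN26 was a condition of its choice. The other 10 ZSCAN genes that fell had log2 fold changes of -2.83 (ZSCAN31), -2.73 (ZSCAN23), -2.63 (ZSCAN5A), -2.23 (ZSCAN16), -1.73 (ZSCAN30), -1.47 (ZSCAN12), -1.35 (ZSCAN22), -1.17 (ZSCAN29), -1.06 (ZSCAN20) and -0.82 (ZSCAN21). ZKSCAN4 was at -0.96. ZSCAN16 was the least sampled of these, with 121 reads in DMSO and 17 in THZ531 over the 3 libraries of each group, and had the widest interval among called members (95% confidence interval -3.26 to -1.20).

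ZSCAN2 was the single SCAN gene that rose. Its values were 147, 149 and 210 normalized reads in DMSO and 298, 234 and 261 in THZ531, a log2 fold change of 0.66 ± 0.16 (SE, adjusted p = 0.0020 in limma). The call was lost without DMSO replicate 1 (0.57), DMSO replicate 2 (0.58) or THZ531 replicate 1 (0.57). Averaged over all 6 libraries and uncorrected for length, the highest value of a ZSCAN gene was that of ZSCAN25, although in DMSO alone ZSCAN22 was higher (781 against 739). ZSCAN25 was not called, at 729, 817 and 670 normalized reads in DMSO and 671, 514 and 672 in THZ531 (-0.26 ± 0.11, SE). Its groups overlapped at their edges. In all, 6 SCAN genes were not called, with log2 fold changes from -0.48 for ZSCAN32 to 0.12 for ZKSCAN5. ZKSCAN8, at 0.01, had a 95% confidence interval of -0.21 to 0.23.

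**Figure D2:**
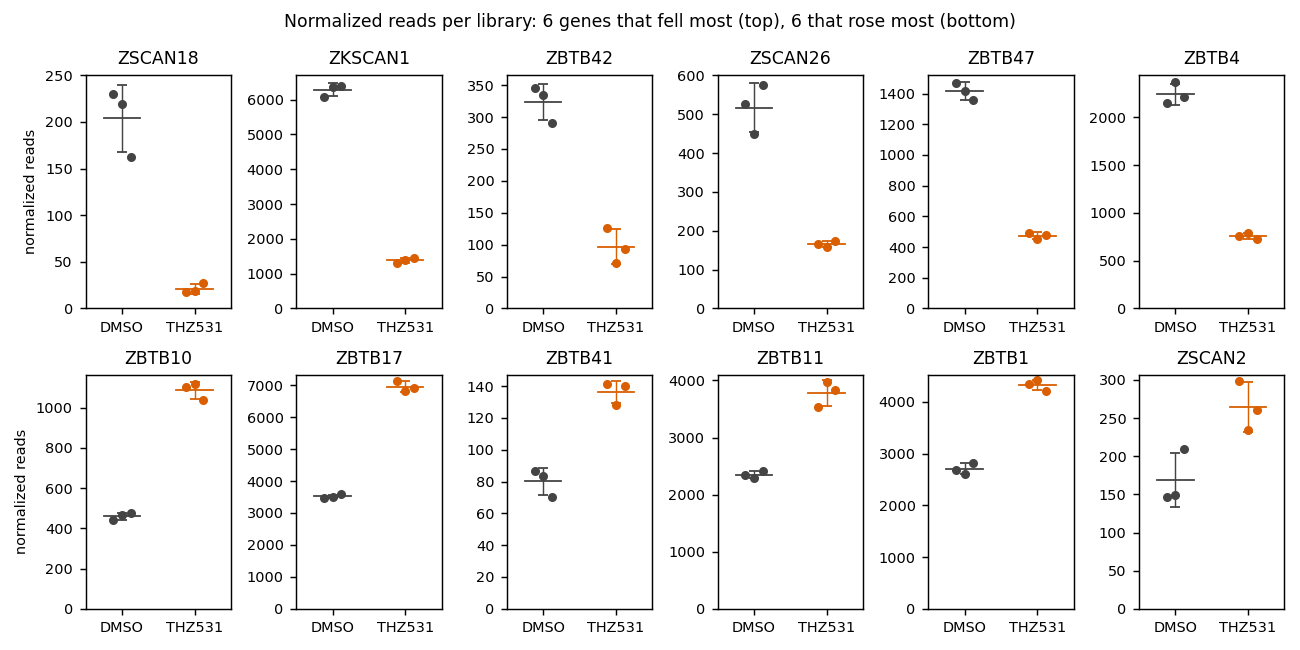
Normalized reads in each library (points), with the group mean and SD (n = 3), for the 6 genes that fell most (top row) and the 6 that rose most (bottom row) among called genes with a mean of at least 100 normalized reads and groups that do not overlap. Each panel has its own linear axis from 0, and in each the 3 THZ531 points lie entirely below or above the 3 DMSO points, as the choice of genes required.

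A cluster of 9 expressed SCAN genes lies on chromosome 6, from 28124609 to 28443491 (hg38), a window of 318883 bases. In chromosomal order they are ZSCAN16, ZKSCAN8, ZSCAN9, ZKSCAN4, ZSCAN26, ZSCAN31, ZKSCAN3, ZSCAN12 and ZSCAN23. Of these, 7 fell and none rose by limma, edgeR or DESeq2 (23.9% and 15.7% of all loci by limma), with a median log2 fold change of -1.59. This count includes ZSCAN16, ZSCAN23 and ZSCAN31, which passed the minimum through their DMSO libraries, and without them 4 of 6 fell, with a median of -1.22. With no limit on the fold change, an unadjusted p of 0.05 or below was reached by 8 lower genes and 0 higher ones, beside 35.1% and 35.6% of all loci (70.8% in either direction). The genes not called were ZKSCAN8 and ZSCAN9, neighbours in this order, at 0.01 and -0.38. ZSCAN9 is among the 8 lower genes and missed only the fold threshold. Lying wholly inside the window are 3 other expressed loci with a symbol, of which 1 fell and all 3 were lower at an unadjusted p of 0.05 or below. ZSCAN16-AS1, which covers ZSCAN16 and is not among these 3, was at 0.12 and was not called. Outside chromosome 6, 8 of 13 SCAN genes fell and 1 rose, with a median of -1.06, and without ZSCAN5A 7 of 12 fell. Neighbours in the cluster are related in sequence, and how the counting treated reads that match more than 1 of them is not given in the sources used here.

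**Figure D3:**
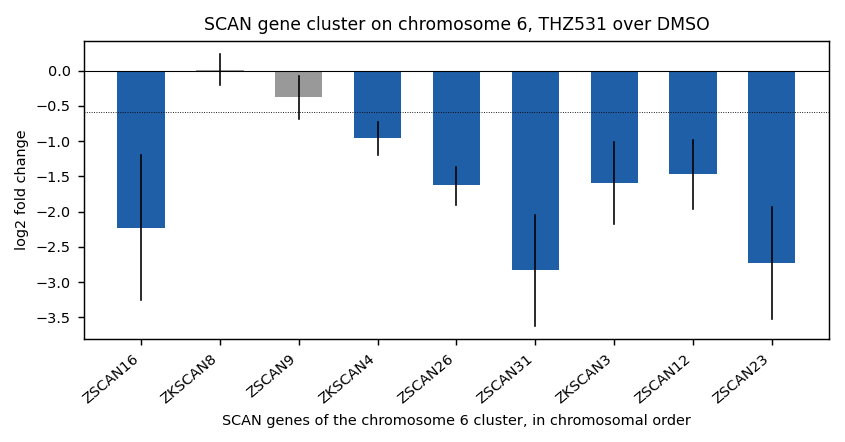
Log2 fold change (THZ531 over DMSO) of the 9 expressed SCAN genes of the chromosome 6 cluster, in chromosomal order and not to scale in distance. Bars start at 0, black lines are 95% confidence intervals, the dotted line marks a fold change of 1.5 downwards, and blue bars are the 7 genes called down.

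Of the ZBTB genes the largest fall was that of ZBTB42, a close relative of ZBTB18 that is mutated in a lethal congenital contracture syndrome. It had 345, 335 and 291 normalized reads in DMSO and 126, 71.6 and 93.3 in THZ531 (log2 fold change -1.76 ± 0.19, SE). ZBTB47 went from 1471, 1418 and 1356 to 494, 450 and 479 (-1.58 ± 0.07, SE). The groups of both genes did not overlap, which was a condition of their choice.

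The ZBTB proteins ZBTB4, ZBTB33 (Kaiso) and ZBTB38 are known to bind methylated CpG sites, and their genes did not move alike. ZBTB4 had 2155, 2368 and 2210 normalized reads in DMSO and 762, 795 and 733 in THZ531, a log2 fold change of -1.55 ± 0.06 (SE). For ZBTB38 the values were 1808, 2166 and 2002 in DMSO and 1014, 1037 and 1060 in THZ531, with a log2 fold change of -0.94 ± 0.07 (SE). Both were lower in each treated library than in any DMSO library. ZBTB33 had 3999, 4118 and 4335 in DMSO and 4061, 4243 and 4021 in THZ531, so its groups overlapped, and its log2 fold change was -0.01 with a 95% confidence interval of -0.11 to 0.08. Per kb of exon ZBTB33 was the second most abundant expressed member in DMSO, at 781 normalized reads.

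ZBTB48, a factor that binds telomere repeats, had 1598, 1418 and 1409 normalized reads in DMSO and 728, 803 and 842 in THZ531, and fell by 0.90 ± 0.08 (SE) on the log2 scale. The other ZBTB genes that fell were ZBTB25 at -1.06, ZBTB22 at -1.02, ZBTB45 at -0.94 and ZBTB12 at -0.92.

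The 5 ZBTB genes that rose were led by ZBTB10, a repressor known for holding down genes of the Sp family. It went from 442, 465 and 476 normalized reads in DMSO to 1106, 1117 and 1040 in THZ531, a log2 fold change of 1.24 ± 0.08 (SE, adjusted p = 7.6e-10 in limma). ZBTB17 (MIZ1), the partner through which MYC represses cell cycle inhibitor genes, had the highest value of the ZBTB genes when averaged over all 6 libraries, although in DMSO alone ZBTB33 was higher (4151 against 3520). Its normalized reads were 3483, 3496 and 3579 in DMSO and 7141, 6812 and 6922 in THZ531, a 1.98-fold higher level (log2 fold change 0.98 ± 0.04, SE, adjusted p = 7.3e-12 in limma). Replicate scatter was small for both genes beside the distance between the groups. ZBTB17 also had the highest level per kb of exon among expressed members in DMSO, at 830 normalized reads.

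ZBTB41 had the lowest level of the 5, at 9.23 normalized reads per kb of exon in DMSO. Values of 86.5, 83.5 and 70.2 normalized reads in DMSO stood against 141, 128 and 140 in THZ531 (log2 fold change 0.77 ± 0.19, SE). ZBTB11, which is mutated in a recessive form of intellectual disability, had 2348, 2284 and 2409 in DMSO and 3530, 3977 and 3841 in THZ531 (0.69 ± 0.05, SE). ZBTB1, needed for lymphocyte development, had 2683, 2614 and 2824 in DMSO and 4343, 4425 and 4219 in THZ531 (0.68 ± 0.05, SE). In each of these genes all 3 treated libraries were higher than all 3 DMSO libraries, which for ZBTB41 and ZBTB11 was a condition of their choice.

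The remaining 23 ZBTB genes were not called, and their log2 fold changes ran from -0.45 for the locus that joins ZBTB24 with MICAL1 to 0.57 for ZBTB8B. Several with well-known roles were among them. ZBTB7A, a repressor of fetal globin genes, had 1569, 1434 and 1304 normalized reads in DMSO and 1321, 1309 and 1463 in THZ531 (-0.07 ± 0.07, SE), with overlapping groups. ZBTB18, a repressor in developing cortical neurons, had 277, 378 and 397 in DMSO and 378, 382 and 340 in THZ531 (0.08 ± 0.13, SE). ZBTB7B (ThPOK), the factor that sets the helper T cell fate, had 1989, 2121 and 1924 in DMSO and 1525, 1481 and 1503 in THZ531. Its groups did not overlap, but the log2 fold change of -0.42 ± 0.06 (SE) was under the fold threshold. ZBTB2, a repressor of the p53 pathway, was at 2129, 2154 and 2299 in DMSO and at 2800, 2704 and 2885 in THZ531, likewise without overlap and under the threshold (0.35 ± 0.05, SE). The joined locus of ZBTB24, the gene of an immunodeficiency with centromeric instability, had 682, 663 and 634 in DMSO and 505, 521 and 429 in THZ531 (-0.45 ± 0.09, SE), and its reads cannot be divided between ZBTB24 and MICAL1. Groups that did not overlap were frequent, with 11 of the 59 genes higher and 33 lower in all THZ531 libraries, beside 36% and 35.7% of all expressed loci (71.7% in either direction).

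Another 10 members were under the minimum for expression and had no test. ZBTB16 (PLZF), a regulator of stem cell maintenance and innate-like T cells, and ZSCAN5B were listed at 0 in all 6 libraries. Because CUL3, a gene that cells use widely, was also listed at 0 throughout, a value of 0 is given here only as listed. ZSCAN4, a gene of the cleavage-stage embryo, had 1.59, 0 and 6.38 normalized reads in DMSO and 0, 0 and 2.28 in THZ531. ZBTB20, a repressor of alpha-fetoprotein in liver, had 2.38, 4.64 and 0 in DMSO and 1.26, 0 and 1.14 in THZ531. Values this close to that of a single read, which was worth between 0.794 and 1.26 normalized reads, do not allow a fold change. By mean value the members nearest to the minimum were ZSCAN16 above it (33.5 in DMSO and 6.61 in THZ531) and ZBTB7C below it (4.59 and 1.14). The other 6 were ZBTB7C, ZBTB32, ZKSCAN7, ZSCAN1, ZSCAN5C and ZSCAN10. Of these ZBTB32 had 0 reads in DMSO and 8 in THZ531, 6 of them in replicate 2.

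The calls depended on how the libraries were put on a common scale. Scaling every library to the same total moved the log2 fold changes by a median of -0.24, and scaling to the ribosomal protein gene RPL34 moved them by a median of -0.49, with smaller shifts for low genes because of the added constant. In the members the split of 6 up and 24 down became 2 and 31 with the same total, and 1 and 38 with RPL34. Over all loci 9.38% were then called up and 32% down with the same total, and 6.14% and 42.8% with RPL34. ZBTB10 was still called up under both, at 0.99 and 0.74, while ZBTB17 was called up with the same total (0.74) and not with RPL34 (0.49). ZBTB1, ZBTB11, ZBTB41 and ZSCAN2 were called up under neither. No called member changed its sign under any scaling, and relative to the median of all loci the members kept their distance by construction. With the upper quartile, which moved the median by -0.02, the members again split into 6 up and 24 down, beside 39.4% of loci called. How much RNA each cell held was not measured, so a common shift of all genes cannot be told apart from a different RNA content per cell, nor can fewer cells of a kind be told apart from less RNA per cell in bulk samples.

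**Figure D4:**
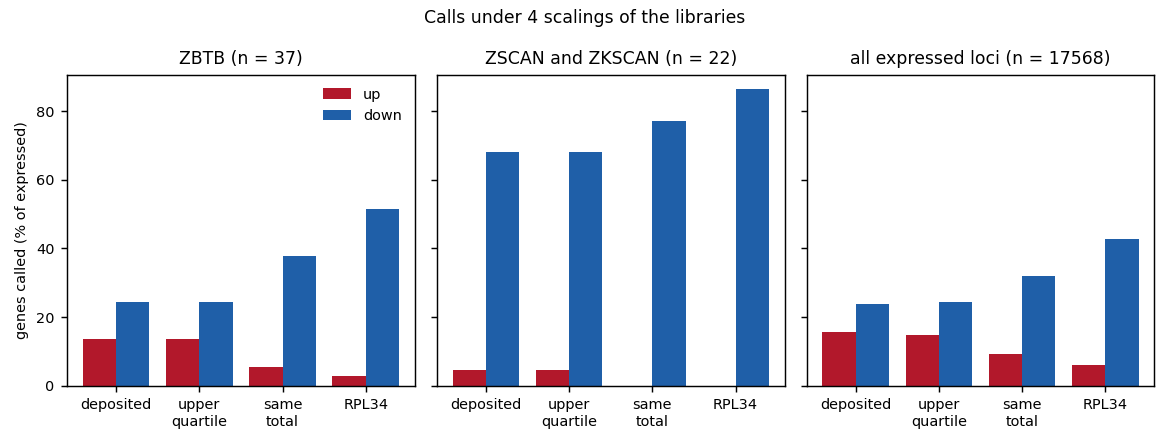
Percentage of expressed genes called up (red) and down (blue) under the deposited scaling and 3 others, for ZBTB genes, SCAN genes and all expressed loci. With RPL34 the SCAN genes had 19 called down of 22 and the ZBTB genes 19 of 37, while 42.8% of all loci were called down.

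Genes with the same domains under other names were counted separately. Of 8 expressed BTB zinc finger genes with other symbols, 2 rose and none was called down by limma, edgeR or DESeq2, although 3 were lower at an unadjusted p of 0.05 or below. Over all loci 15.7% were called up and 23.9% down, and at that p with any fold 35.6% were higher and 35.1% lower. The split of this list became 2 up and 1 down with the same total, and 1 up and 4 down with RPL34. BCL6, the repressor that directs the germinal centre reaction of B cells, went from 866, 927 and 871 normalized reads to 2583, 2600 and 2306 (log2 fold change 1.49 ± 0.06, SE). HIC2, a repressor of BCL11A, went from 1384, 1501 and 1508 to 2807, 2877 and 3025 (0.99 ± 0.06, SE), and was at 0.49 and not called with RPL34. For both genes all treated libraries were above all DMSO libraries. Of 25 expressed SCAN genes with other symbols, 13 fell (52%, beside the 23.9% of all loci), or 12 of 24 without ZNF75D. The 52% stood below the 68.2% of ZSCAN and ZKSCAN genes, beside 48.1% and 43.2% of the ZNF groups, without a test. With at least 10 in all 6 libraries the shares were 50% and 61.1%. None of the 25 was called up by any of the 3 tools, while 4 were higher at an unadjusted p of 0.05 or below, beside 35.6% of all loci. ZNF75D had the largest decrease, from 77.8, 65 and 58.2 normalized reads in DMSO to 0, 0 and 7.96 in THZ531, so it passed the minimum through DMSO alone. Its fitted log2 fold change of -5.02 ± 0.74 (SE) depends on the added constant of 1. ZNF232 fell by 1.92 ± 0.26 and ZNF397 by 1.66 ± 0.33 (SE) on the log2 scale. PEG3, joined with ZIM2, was listed at 0, and ZNF396 was under the minimum. ZNF445 was counted together with C3orf86.

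Under the deposited scaling, the partners that BTB and KRAB domains recruit were called at a rate near that of all loci, 42.9% beside 39.5%. Of 22 listed genes of corepressor complexes and cofactors 21 were expressed, and of these 5 rose (23.8%, beside 15.7% of all loci) and 4 fell (19%, beside 23.9%), with a median log2 fold change of 0.34 (-0.15 with RPL34). BCOR, the corepressor bound by BCL6, rose from 406, 586 and 531 normalized reads to 1414, 1309 and 1374 (1.44 ± 0.11, SE). MYC, the partner of ZBTB17, rose from 2058, 2084 and 2389 to 5010, 4955 and 5050 (1.20 ± 0.06, SE), and MTA2, a subunit of the NuRD deacetylase complex, rose by 0.77 (0.52 with the same total and 0.27 with RPL34, not called in either). SIN3B, a scaffold of the SIN3 deacetylase complex, was lower, at 595, 605 and 557 in DMSO and 190, 223 and 162 in THZ531 (-1.62 ± 0.12, SE). MTA1, a paralogue of MTA2, was at -0.89, and TBL1X, a subunit of the NCOR complex, was at -0.88. With the same total 6 of the 21 were called, 2 up and 4 down, beside 41.3% of all loci. With RPL34 7 of the 21 were called, 2 up and 5 down, beside 49% of all loci.

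The genes were then compared with their structure in GENCODE v44, using the MANE transcript, the agreed reference transcript of each gene. Across the 37 expressed ZBTB genes a longer genomic span went with a higher log2 fold change (Pearson r = 0.48, Spearman rho = 0.58). Across the 22 SCAN genes the values were 0.05 and 0.23. These are descriptions across genes measured in the same 6 libraries, and genes are not independent replicates. The median span was 9287 bases for the 9 ZBTB genes called down, 34233 bases for the 5 called up and 23597 bases for the 23 not called. ZBTB42 has 1 exon and a span of 3612 bases, whereas ZBTB17 has 16 exons over 34233 bases. Not all called genes followed this order, since ZBTB38 fell with a span of 81289 bases and ZBTB48 fell with 11 exons. For the number of exons in ZBTB genes, Pearson r was 0.33 and Spearman rho was 0.30. A single coding exon was found in 15 ZBTB genes and in none of the SCAN genes.

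**Figure D5:**
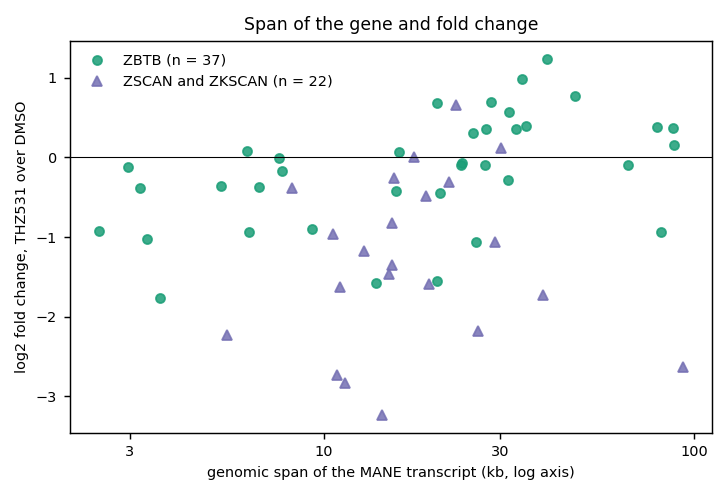
Log2 fold change (THZ531 over DMSO) against the genomic span of the MANE transcript in kb (log axis), one point per expressed gene, circles for 37 ZBTB and triangles for 22 SCAN genes. The circles rise from short to long spans (Spearman rho = 0.58), whereas the triangles are scattered (rho = 0.23).

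ZBTB1 and ZBTB25 form a head-to-head pair on chromosome 14 that moved in opposite directions. The MANE start of ZBTB1 lies at 64504770 on the plus strand and that of ZBTB25 at 64503838 on the minus strand, 932 bases apart, and the annotated loci share 1229 bases. While ZBTB1 rose by 0.68, ZBTB25 had 1008, 1099 and 1014 normalized reads in DMSO and 494, 491 and 511 in THZ531 (log2 fold change -1.06 ± 0.08, SE). Promoter windows of 300 bases around the start, from RefSeq (GRCh38.p14), are printed for this pair, which differ in response while sharing a locus, and for ZKSCAN1 and ZBTB11, the first a gene that fell and the second one that rose. Capitals mark matches on either strand to 4 motifs, the GC box GGGCGG, the E-box CACGTG, the ETS core CCGGAAG and the cAMP response element TGACGTCA. The windows are chr14:64504520-64504819 (plus strand) for ZBTB1, chr14:64503789-64504088 (minus strand) for ZBTB25, chr7:100015346-100015645 (plus strand) for ZKSCAN1 and chr3:101677083-101677382 (minus strand) for ZBTB11.
ZBTB1: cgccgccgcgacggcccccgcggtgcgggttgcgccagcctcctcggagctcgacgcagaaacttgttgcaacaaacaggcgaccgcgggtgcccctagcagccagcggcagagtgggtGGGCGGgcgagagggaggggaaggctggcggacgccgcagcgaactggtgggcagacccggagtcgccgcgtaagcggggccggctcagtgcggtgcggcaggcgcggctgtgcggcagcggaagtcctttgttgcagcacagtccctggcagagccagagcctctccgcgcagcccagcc
ZBTB25: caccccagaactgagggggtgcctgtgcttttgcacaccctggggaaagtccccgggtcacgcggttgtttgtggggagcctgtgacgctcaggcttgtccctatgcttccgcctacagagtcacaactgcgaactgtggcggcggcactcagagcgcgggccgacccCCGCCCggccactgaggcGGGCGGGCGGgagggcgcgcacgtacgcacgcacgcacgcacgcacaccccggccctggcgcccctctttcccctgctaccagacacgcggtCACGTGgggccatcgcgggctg
ZKSCAN1: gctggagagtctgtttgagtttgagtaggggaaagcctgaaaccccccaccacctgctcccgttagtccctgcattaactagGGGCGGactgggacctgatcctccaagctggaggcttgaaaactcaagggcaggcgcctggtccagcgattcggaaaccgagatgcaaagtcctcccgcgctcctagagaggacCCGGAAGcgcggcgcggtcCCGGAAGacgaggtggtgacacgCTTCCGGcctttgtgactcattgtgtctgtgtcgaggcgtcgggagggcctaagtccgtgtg
ZBTB11: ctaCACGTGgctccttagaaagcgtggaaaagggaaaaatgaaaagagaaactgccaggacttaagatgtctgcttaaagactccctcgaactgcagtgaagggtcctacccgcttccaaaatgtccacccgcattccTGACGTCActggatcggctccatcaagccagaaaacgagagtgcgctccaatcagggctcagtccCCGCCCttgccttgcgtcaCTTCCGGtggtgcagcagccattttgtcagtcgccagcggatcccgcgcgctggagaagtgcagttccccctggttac
The 2 windows of the pair do not overlap. That of ZBTB1 holds 36 CpG sites and 1 GC box, and that of ZBTB25 holds 31 CpG sites, 3 GC boxes and 1 E-box. The window of ZKSCAN1 holds 3 ETS cores, 1 GC box and 21 CpG sites, and that of ZBTB11 holds 1 ETS core, 1 GC box, 1 E-box, 1 cAMP response element and 17 CpG sites.

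Over the 51 expressed members with a RefSeq window, the ETS core stood in 25 (49%), beside 18.9% of the windows of 10933 expressed genes and 10.3% of all 35116 windows. It was in 12 of 22 windows of genes called down, in 1 of 3 of those called up and in 12 of 26 of those not called. The GC box stood in 74.5% of the members' windows and in 72.7% of those of expressed genes. The CCAAT box (CCAAT) stood in 35.3% and 36.4%, and the TATA box (TATAAA) in 1.96% and 5.73%. A match is a match of letters and does not show binding. ZBTB6, ZBTB10, ZBTB17, ZBTB40, ZBTB41, ZKSCAN2, ZSCAN16 and ZSCAN26 are expressed members without an entry.

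Some of these values may include reads of overlapping genes, since the strand setting of the counting is not given in the sources used here, although the library kit keeps strand. Of the expressed members 15 overlap another expressed locus with a symbol, and 4 lie wholly within one. ZBTB17 lies within the annotated loci of SPEN and SLC25A34 on the other strand, of which SPEN rose by 0.63 and SLC25A34 was at -3.50. ZSCAN30 lies within ZNF397, which is itself a SCAN gene and fell by 1.66. ZSCAN16 lies within its antisense gene ZSCAN16-AS1, which was at 0.12 and was not called, and ZBTB12 lies within C2, at -0.09 and not called. The loci of ZKSCAN3 and ZSCAN31 share 6358 bases on opposite strands. ZBTB11-AS1, which overlaps ZBTB11 by 707 bases, fell by 0.85 while ZBTB11 rose. If the counting ignored strand, reads of such partners cannot be told apart.

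The table also holds loci without a symbol, and 54 of them lie inside 18 members. Of these 3 were expressed and 2 were called, beside 39.5% of all loci, each of the 2 having passed the minimum through the group in which it was higher. One, in intron 2 of ZBTB2 on chromosome 6 from 151368776 to 151371828, had 4.76, 4.64 and 23.9 normalized reads in DMSO and 26.4, 22.7 and 31.9 in THZ531, so DMSO replicate 3 lay among the treated ones (log2 fold change 1.57 ± 0.57, SE, adjusted p = 0.023 in limma). The other, in intron 1 of ZBTB5 on chromosome 9 from 37447345 to 37449699, had 21.4, 11.1 and 27.1 in DMSO and 7.56, 4.55 and 7.96 in THZ531 (-1.39 ± 0.54, SE, adjusted p = 0.032 in limma). Neither overlaps an annotated exon of its host gene in GENCODE v44, and exons of other genes were not checked. The third, of 28 bases inside ZKSCAN7, was at 0.03. The 2 calls rest on few reads and were lost without some of the libraries, the number called ranging from 0 to 2 as each library was left out.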

How the data were processed

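PolyA RNA of 3 DMSO and 3 THZ531 libraries was sequenced with a stranded kit. The authors mapped reads to hg38 with STAR, version 2.7.5a in the submitters' processing notes, whereas the paper's methods name an earlier version. They counted reads on FAST DB genes with featureCounts and deposited a signal, the counts divided by a DESeq2 size factor. In each library 100% of these values were whole multiples (tolerance 0.01) of 1 read, so reads were recovered. The deposited values were tested as log2(value + 1), with a minimum of 10 in 3 libraries, in limma 3.58.1 (trended variance, R 4.3.3) over 17568 loci without covariates, and p-values were adjusted by Benjamini-Hochberg. This scale understates changes of low genes. On simulated data with 15278 genes, 63 of 67 genes changed 1.75-fold were called and 73 of 14956 unchanged genes (0.488%). The changed genes there had means of at least 100, few genes changed, and all had the same simulated dispersion between replicates. These rates therefore do not cover genes with lower means or a change as wide as in these data. edgeR 4.0.16 and DESeq2 1.42.0 on the recovered reads, 3 other scalings, pseudocount 0.1, no minimum, a minimum of 50, adjusted p, a fold of 2, no trend, a replicate block and leaving out each library (minimum reapplied) were alternatives. Named genes are the 6 called members with a mean of at least 100 and non-overlapping groups that changed most in each direction, members of known role, the most abundant of each subfamily, every other called member, and the 3 list genes called with the largest change in each direction. Members, lists and tests were chosen with earlier results of these data known. Replicates of a group differed by more than counting noise. Intervals and SE come from limma, which draws the variance of each gene toward a trend over all 17568 loci. They therefore do not describe the spread of a gene's own libraries alone. A marker on the lists is not reported here.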

Additional observations from a re-analysis of the deposited data

How the results depend on the processing

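Under the adjusted p, edgeR, DESeq2, limma without a trend and pseudocount 0.1 all 30 called members kept their calls. Across 37 named members and 14 settings (518 values), 495 kept direction and side of the threshold, 12 lost their call, 5 gained one and 6 changed sign. With the other tools, the block, the pseudocount, the minimums and single libraries left out, 37.7% to 39.4% of all loci were called, except for 31% without a minimum. With the same total 2 members were called up, both of them ZBTB genes, 0 SCAN genes up and 14 ZBTB genes down. With RPL34 scaling 1 member was called up (a ZBTB gene), 0 SCAN genes up, 38 members and 19 ZBTB genes down. At a fold of 2, 1 member was called up, a ZBTB gene, 0 SCAN genes up and 5 ZBTB genes down. That fold was also reached by 8 of 33 genes under other names and 3 of 21 partners, beside 23% of all loci. Over all 59 members 5 changed sign with the same total and 11 with RPL34, each of them uncalled. Among named members the sign changed for ZBTB18 with the same total (-0.16), with RPL34 (-0.41) and without DMSO replicate 1 (-0.08), for ZBTB2, at 0.35 as deposited, with RPL34 (-0.14), and for ZBTB33 without DMSO replicate 3 (0.02) or THZ531 replicate 3 (0.00). Leaving out single libraries gave -0.08 to 0.18 for ZBTB18 and -0.04 to 0.02 for ZBTB33. Under the scalings these follow from the common shift of the values, and the cause of those on leaving out a library was not tested. Leaving out each library gave 5 to 6 members up and 24 down, 0 to 1 SCAN genes up, 12 to 17 genes under other names, 8 to 10 partners and 0 to 2 nested loci called. The nested loci called were 1 with RPL34, 4 without a minimum, 0 with a minimum of 50 and 1 without a trend. With the replicate number as a block the members again gave 6 up and 24 down, all 30 shared. Same-numbered libraries did not deviate together (r = 0.002, 0.019 and -0.039). Samples handled in pairs without a strong shared effect could give the same, so this does not settle whether the numbers pair the samples. A minimum on the mean over all libraries, chosen after seeing the data, kept all 30 calls. Low counts limit ZSCAN16, ZSCAN5A, ZSCAN23 and ZSCAN31.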
